A study of Rattus norvegicus with 10 samples.

Results

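The constitutive proteasome genes of the rat were followed in RNA of sensory axons from adult and embryonic animals. They were chosen by symbol as the alpha subunits (Psma1 to Psma7) and beta subunits (Psmb1 to Psmb7) of the core particle, the ATPases of the regulatory particle (Psmc1 to Psmc6) and every gene named Psmd. In all, 33 of 14217 genes with a probe set of their own met this rule, 13 of the core particle and 20 of the regulatory particle. Psmb6, which encodes one of the catalytic subunits, shared its probe set with a similar gene and was not analysed. A gene was read from the probe set of highest mean over the 10 arrays, and all values are log2 values after RMA (robust multi-array average).

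The adult group consisted of 5 arrays with axonal RNA of dorsal root ganglion neurons from adult rats, and the embryonic group of 5 arrays with axonal RNA from rats at embryonic day 16. In both groups ganglion explants had been kept for 4 days in a chamber with compartments, and axons over 1 cm long were taken from its outer compartment. Adult age, strain, sex and treatment of the animals were not given in the sources used here, nor whether a sample pooled several animals. The labels call the 5 samples of a stage biological replicates.

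The proteasome degrades proteins that carry chains of ubiquitin. Its core particle is a barrel of stacked rings: the outer rings of alpha subunits form the gate, and the inner rings of beta subunits hold the proteolytic sites. The regulatory particle caps the barrel. Its base unfolds substrates with a ring of ATPases and binds ubiquitin, and its lid removes the ubiquitin chain. In neurons, degradation of proteins within the axon is known to take part in growth cone responses, in axon guidance and in the breakdown of injured axons. In cells exposed to interferon, the catalytic subunits can be replaced by the inducible subunits Psmb8, Psmb9 and Psmb10, which shape the peptides shown to immune cells.

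The arrays differed from each other in ways that bear on every result below. The standard deviation of all values of an array ranged from 1.52 to 2.09, and it lay above the middle of that range, 1.80, on 4 arrays, adult replicates 4 and 5 and embryonic replicates 1 and 5. These are called arrays of wide spread and the other 6 arrays of narrow spread. Since the split came from the values of the same arrays, it describes them and is no label of the study. Background was set on each array at the level that 95% of 84 probe sets for 71 genes of other tissues stayed under, which was 2.92 to 4.07. Above it were 5136 to 9767 genes on adult arrays and 5699 to 9048 on embryonic arrays. The probe sets of the poly-A control transcripts, which the platform uses as spike-ins before labelling, averaged 7.75 to 11.99 on adult arrays and 2.00 to 2.65, under the background level, on embryonic arrays. Whether the spike-in was added to the embryonic samples was not stated in the sources used here, and a difference in sample handling and the stage cannot be told apart. Of the 11 measured markers of sensory neurons, 8 to 10 were above background on adult arrays and 9 to 11 on embryonic arrays, 7 of them on all 10 arrays. Their summed level was 61.1 to 85.5 on adult arrays and 76.3 to 108.0 on embryonic arrays. The median of their changes, adult minus embryonic, was -2.38, with 9 of the 11 below 0. Tubb3 (-3.18), Prph (-4.32), Nefl (-3.72) and Nefm (-3.42) were lower in adult axons past the test used below.

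The start regions of the genes are shown first for the catalytic subunits and their inducible counterparts, because Psmb8 and Psmb5 differ in the stage comparison given later. Each window runs from 250 bases before to 50 bases after a start position from RefSeq's annotation of GRCr8, and distances are counted from that position. It is not always the outer end of the gene. Psma6 begins at 78500676 on chromosome 6, but its window begins at 78514097. For Psmb8, whose gene on the minus strand reaches to 4657049, the position lies inside the gene. Capitals mark matches, on either strand, to any of 5 motifs: the antioxidant response element TGACNNNGC, the CCAAT box, the GC box GGGCGG, the interferon response core (GAAA, 2 bases of any kind and GAAA again) and the gamma-activated site TTCNNNGAA. Psmb5 encodes the chymotrypsin-like subunit and Psmb8 its inducible counterpart. The window of Psmb5 is chr15:32047330-32047629, minus strand, and that of Psmb8 is chr20:4656982-4657281, minus strand.
Psmb5: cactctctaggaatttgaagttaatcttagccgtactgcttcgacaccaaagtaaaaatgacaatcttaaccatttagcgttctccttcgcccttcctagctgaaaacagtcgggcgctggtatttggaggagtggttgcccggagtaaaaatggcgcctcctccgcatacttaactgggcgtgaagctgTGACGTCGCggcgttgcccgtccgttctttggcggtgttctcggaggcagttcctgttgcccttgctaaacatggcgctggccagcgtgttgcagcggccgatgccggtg
Psmb8: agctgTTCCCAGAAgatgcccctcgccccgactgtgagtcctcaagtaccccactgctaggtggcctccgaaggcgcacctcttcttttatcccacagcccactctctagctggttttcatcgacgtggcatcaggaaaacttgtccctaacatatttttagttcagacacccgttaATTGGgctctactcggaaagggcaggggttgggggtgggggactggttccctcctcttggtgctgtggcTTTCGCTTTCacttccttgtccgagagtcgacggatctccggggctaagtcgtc
The window of Psmb5 held 1 antioxidant response element, 60 bases before the start. The window of Psmb8 held a gamma-activated site 245 bases and a CCAAT box 73 bases before the start. Its interferon response core began 4 bases before the start and ran across it.

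Psmb7 encodes the trypsin-like subunit and Psmb10 its inducible counterpart. The window of Psmb7 is chr3:42827421-42827720, minus strand, and that of Psmb10 is chr19:50743243-50743542, minus strand.
Psmb7: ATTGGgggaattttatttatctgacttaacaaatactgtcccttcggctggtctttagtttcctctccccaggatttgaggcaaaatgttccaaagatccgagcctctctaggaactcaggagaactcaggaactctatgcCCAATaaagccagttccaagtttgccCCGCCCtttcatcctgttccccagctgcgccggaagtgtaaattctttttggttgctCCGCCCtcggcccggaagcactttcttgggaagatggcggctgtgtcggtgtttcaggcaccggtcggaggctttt
Psmb10: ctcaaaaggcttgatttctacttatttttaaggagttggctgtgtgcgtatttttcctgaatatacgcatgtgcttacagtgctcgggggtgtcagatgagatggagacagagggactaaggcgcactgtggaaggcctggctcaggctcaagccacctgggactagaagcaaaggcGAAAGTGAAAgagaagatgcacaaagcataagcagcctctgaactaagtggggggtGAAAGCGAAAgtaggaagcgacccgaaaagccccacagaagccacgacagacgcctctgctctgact
The window of Psmb10 held interferon response cores 73 and 17 bases before the start, and the window of Psmb7 held CCAAT boxes and GC boxes. The third inducible subunit, Psmb9, had 2 GC boxes and a CCAAT box in its window but no match to the interferon response core or the gamma-activated site; of the genes of the interferon-induced activator ring, Psme2 had 1 interferon response core and Psme1 none. The structural beta subunit Psmb2 is shown because its window, chr5:144254808-144255107 on the plus strand, held an antioxidant response element that overlaps a CCAAT box at one end and a GC box at the other, besides a second CCAAT box 214 bases before the start.
Psmb2: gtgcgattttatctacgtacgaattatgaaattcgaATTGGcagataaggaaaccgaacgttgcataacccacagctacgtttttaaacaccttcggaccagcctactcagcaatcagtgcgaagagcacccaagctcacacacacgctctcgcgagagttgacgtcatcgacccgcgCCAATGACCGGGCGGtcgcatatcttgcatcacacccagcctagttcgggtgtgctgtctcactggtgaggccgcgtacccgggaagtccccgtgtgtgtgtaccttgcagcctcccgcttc

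Windows were found for 29 of the 33 members, all but Psma7, Psmd6, Psmd12 and Psmd14. The GC box stood in 20 of the 29 windows (69%) and in 33.1% of all 33469 windows of the same length. The CCAAT box stood in 16 windows (55.2%, against 37.5% of all windows). The antioxidant response element stood in 6 windows (20.7%, against 12.1%), those of Psma3, Psmb2, Psmb5, Psmd1, Psmd3 and Psmd9. The interferon response core stood in 3 windows (10.3%, against 3.92%) and the gamma-activated site in 3 (10.3%, against 8.87%). Between the particles, the CCAAT box stood in 9 of 12 core windows and 7 of 17 regulatory windows. For the GC box these counts were 10 and 10, and for the antioxidant response element 3 and 3. The interferon response core stood in 2 core and 1 regulatory windows, the gamma-activated site in 0 and 3. A match is a description of letters and not a bound site.

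Transcripts of the proteasome were detected in the axonal RNA of both stages, which also held markers of other cell types, given below. On all 5 adult arrays 17 of the 33 members were above background, and on all 5 embryonic arrays 27 were, with 16 above it on all 10 arrays. Of all 14217 genes, 3408, 4026 and 2442 were above background on these sets of arrays. Members above background numbered 30, 23, 22, 33 and 33 on the adult arrays and 33, 32, 31, 29 and 33 on the embryonic arrays. Every member exceeded background on each of the 4 arrays of wide spread. The adult arrays with fewest members above background were thus replicates 2 and 3, both of narrow spread.

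No member passed the test between the stages. In limma's fit over all probe sets, with Benjamini-Hochberg adjustment, 0 of 33 members had an adjusted p below 0.05, while 1.26% of all genes did. At an unadjusted p below 0.05 there were again 0 of 33 members, against 13.3% of all genes. In 0 of 33 members did the 5 adult values all lie on one side of the 5 embryonic values, as they did in 3.54% of all genes. These counts do not show equal levels. The 95% intervals of the changes reached from 0.69 to 2.43 to either side, with a median of 1.81. Only that of Psmd11, a scaffold subunit of the lid, lay within a change of 1 in either direction. Another probe set of Psmd11, above background on every array, had a wider interval of -1.71 to 1.71. For 13 of 33 members the interval lay within a change of 2. In bulk RNA of this kind, fewer axons of a type and less RNA per axon cannot be told apart. The number of arrays limits the precision.

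**Figure D1:**
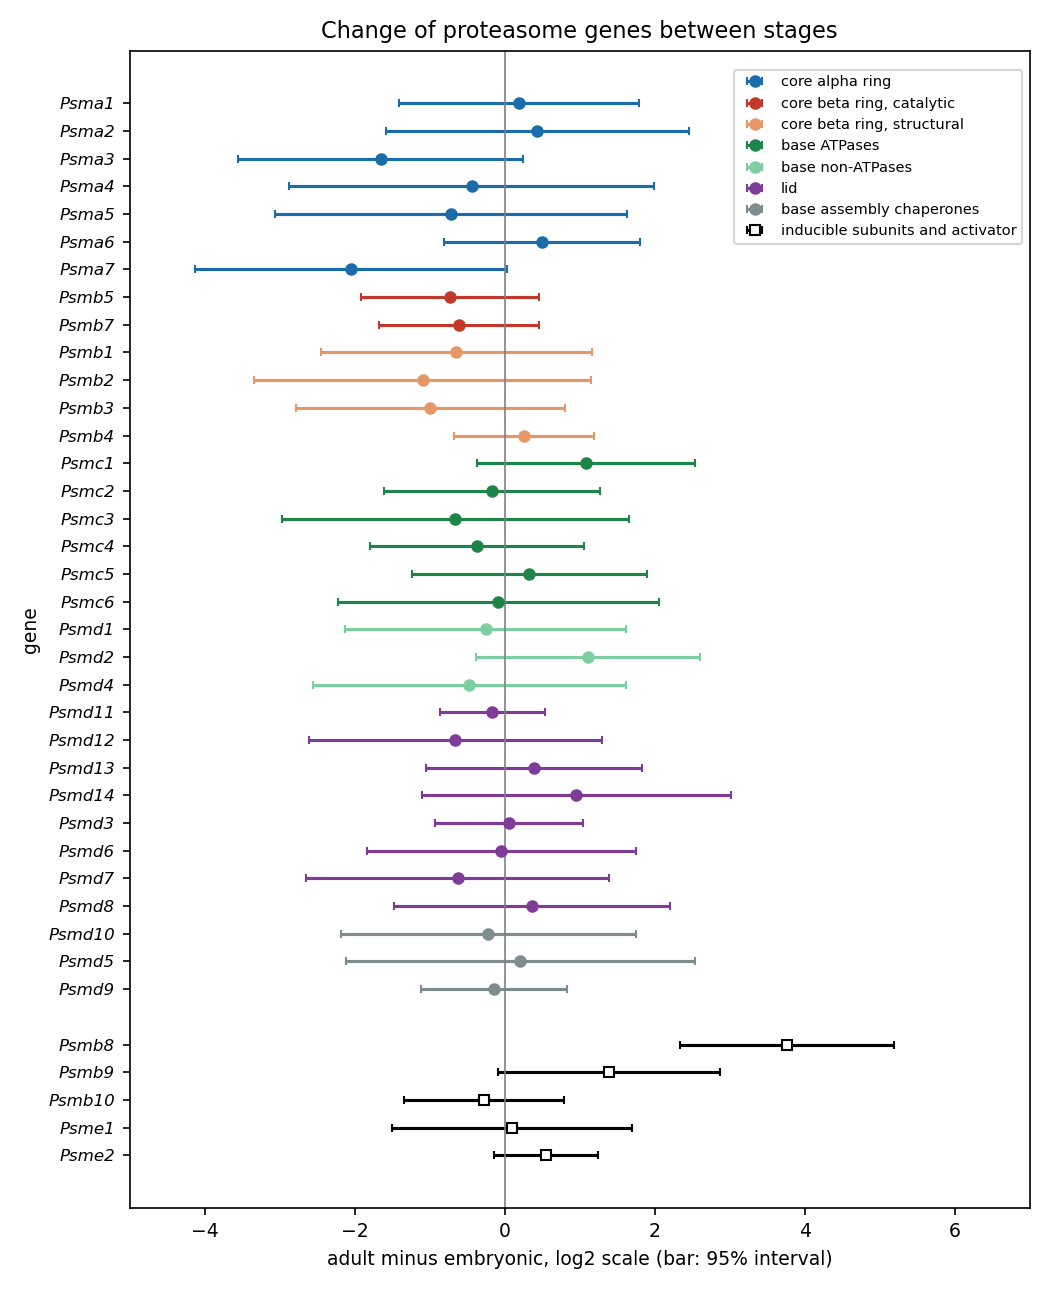
Adult minus embryonic change (log2 scale, horizontal axis) of the 33 constitutive proteasome genes, coloured by role, and of 5 inducible genes (open squares), with limma's 95% intervals over 5 adult and 5 embryonic arrays. All 33 member intervals include 0, and that of Psmb8 lies between 2.34 and 5.19.

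The changes, adult minus embryonic, were above 0 for 12 members and below 0 for 21, with a median of -0.17. The median over all genes was -0.001, and over the 8231 genes above background on at least 5 arrays it was -0.09. Core genes had a median change of -0.64, with 9 of 13 below 0, and a range of -2.04 to 0.50. Regulatory genes had a median of -0.11, with 12 of 20 below 0, and a range of -0.66 to 1.11; under cyclic loess scaling their median was 0.21 and that of the core genes -0.29. The medians are descriptions and were not tested. Core minus regulatory was -0.53, but -0.09 over the arrays of wide spread and -0.72 over those of narrow spread. The core median was -0.27 without adult replicate 2 and -0.30 without adult replicate 3, but -0.95 without adult replicate 4 and -1.11 without adult replicate 5. The regulatory median was -0.37 and -0.38 without adult replicates 4 and 5, but above 0 without adult replicate 1 (0.11), 2 (0.21) or 3 (0.31) or embryonic replicate 1 (0.04), and -0.005 without embryonic replicate 5.

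Among the alpha subunits the change was largest in size for Psma7. It had 5.91, 6.39, 4.61, 9.55 and 10.02 on the adult arrays, against 9.25, 9.92, 9.11, 9.29 and 9.12 on the embryonic arrays. Adult replicates 1 to 3 lay below every embryonic array, adult replicate 4 lay within the embryonic range and adult replicate 5 above it. The change was -2.04 with an SE of 0.94 (limma, adjusted p = 0.518). At the other end of the ring stood Psma6, with 8.15, 9.16, 8.81, 10.64 and 11.12 on the adult arrays, against 9.40, 9.61, 7.79, 9.23 and 9.37 on the embryonic arrays. Its stages overlapped, with adult replicates 4 and 5 the highest of all, and its change was 0.50 with an SE of 0.59 (limma, adjusted p = 0.902). The other 5 alpha subunits had changes of -1.65 (Psma3) to 0.44 (Psma2). Psma3 was read from a probe set of its own; another probe set, which also names a similar gene, was not used.

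Psmb5 had 8.48, 7.33, 9.45, 9.74 and 10.66 on the adult arrays, against 9.76, 9.84, 9.99, 9.40 and 10.31 on the embryonic arrays. The stages overlapped, with adult replicates 1 and 2 below the embryonic range, and the change was -0.73 with an SE of 0.54 (limma, adjusted p = 0.776). Psmb7 had 6.35, 6.94, 9.04, 7.70 and 8.43 on the adult arrays, against 7.65, 8.47, 8.48, 8.67 and 8.23 on the embryonic arrays. Again adult replicates 1 and 2 lay below the embryonic range, while adult replicate 3 was the highest array, and the change was -0.61 with an SE of 0.48 (limma, adjusted p = 0.802).

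The beta subunits without a proteolytic site complete the inner rings. Psmb2, the one with the lowest change, had 5.87, 2.84, 5.77, 8.64 and 9.03 on the adult arrays, against 8.07, 7.52, 7.65, 6.49 and 7.91 on the embryonic arrays. Its adult replicates 1 to 3 lay below all embryonic arrays and its adult replicates 4 and 5 above them, so that the change of -1.09 had an SE of 1.02 (limma, adjusted p = 0.848). Psmb4, the one with the highest change, had 9.44, 9.20, 9.71, 10.79 and 11.24 on the adult arrays, against 10.08, 10.08, 9.42, 9.30 and 10.24 on the embryonic arrays. Its stages overlapped, and the change was 0.25 with an SE of 0.42 (limma, adjusted p = 0.943). Psmb1 and Psmb3 had changes of -0.64 and -0.99.

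The base of the regulatory particle holds the ATPases. Psmc1, whose protein forms part of the ATPase ring and helps open the gate, had 5.80, 8.15, 8.08, 8.58 and 7.60 on the adult arrays, against 7.91, 6.24, 6.19, 4.85 and 7.57 on the embryonic arrays. Embryonic replicate 4 was the lowest array and adult replicate 4 the highest, the stages overlapped, and the change was 1.09 with an SE of 0.66 (limma, adjusted p = 0.690). Psmc3, another ATPase of the ring, had 5.63, 3.25, 4.08, 8.88 and 7.16 on the adult arrays, against 6.80, 6.88, 4.54, 8.29 and 5.78 on the embryonic arrays. Here adult replicates 2 and 3 were the lowest arrays and adult replicate 4 the highest, and the change was -0.66 with an SE of 1.05 (limma, adjusted p = 0.937). The remaining ATPases Psmc2, Psmc4, Psmc5 and Psmc6 had changes of -0.37 (Psmc4) to 0.33 (Psmc5).

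Of the other base subunits, Psmd2 is a scaffold that docks shuttle factors carrying ubiquitinated proteins. It had 7.48, 7.42, 8.69, 9.76 and 9.15 on the adult arrays, against 8.79, 7.83, 5.57, 6.44 and 8.30 on the embryonic arrays. The stages overlapped, with embryonic replicates 3 and 4 the lowest, and the change of 1.11, SE 0.68, was the highest of all members (limma, adjusted p = 0.698). Psmd4, a ubiquitin receptor, had 5.23, 6.90, 2.85, 7.79 and 6.88 on the adult arrays, against 7.17, 7.21, 7.21, 3.95 and 6.46 on the embryonic arrays. Adult replicate 3 and embryonic replicate 4 were below background, and the change was -0.47 with an SE of 0.95 (limma, adjusted p = 0.956). Psmd1, the other large scaffold of the base, had a change of -0.25.

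Psmd14 encodes the deubiquitinase of the lid. It had 8.97, 5.26, 8.33, 10.47 and 9.93 on the adult arrays, against 8.64, 7.23, 5.75, 8.73 and 7.84 on the embryonic arrays. Adult replicates 4, 5 and 1 were the highest arrays and adult replicate 2 the lowest, and the change was 0.96 with an SE of 0.93 (limma, adjusted p = 0.862). Psmd12, a lid scaffold, had 4.96, 2.39, 6.59, 7.47 and 7.60 on the adult arrays, against 6.91, 5.60, 6.70, 6.34 and 6.74 on the embryonic arrays. Adult replicates 1 and 2 lay below the embryonic range and adult replicates 4 and 5 above it, with a change of -0.66 and an SE of 0.88 (limma, adjusted p = 0.922). The lid subunits Psmd3, Psmd6, Psmd7, Psmd8, Psmd11 and Psmd13 had changes of -0.63 (Psmd7, the partner of Psmd14) to 0.39 (Psmd13). Another probe set of Psmd7 had a change of 0.41.

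The chaperones that assemble the base are not part of the finished particle. Psmd5 had 5.30, 2.71, 2.90, 7.37 and 6.88 on the adult arrays, against 6.75, 5.45, 3.38, 3.00 and 5.54 on the embryonic arrays, a change of 0.21 with an SE of 1.05 (limma, adjusted p = 0.984). Psmd10, also known as gankyrin, had 3.40, 6.82, 3.07, 6.77 and 7.56 on the adult arrays, against 6.06, 5.34, 5.02, 7.01 and 5.30 on the embryonic arrays, a change of -0.22 with an SE of 0.89 (limma, adjusted p = 0.980). For both genes adult arrays were the lowest and the highest of the 10, and the third chaperone, Psmd9, had a change of -0.14.

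The adult arrays spread far more than the embryonic arrays. The SD over 5 arrays was larger in the adult stage for 31 of 33 members (93.9%), and for 63.2% of all genes. Its median over members was 1.87 on adult arrays and 0.73 on embryonic arrays, against 0.80 and 0.63 over all genes. Over genes above background on at least 5 arrays the medians were 1.07 and 0.85, and the adult SD was larger for 64.0%. For core genes the medians were 2.02 on adult arrays and 0.54 on embryonic arrays, and for regulatory genes 1.80 and 0.87. No test was made of these shares, since genes on the same arrays are not independent.

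The adult spread followed the arrays. Adult replicates 4 and 5 both exceeded adult replicates 1 to 3 in 27 of 33 members, 12 of them core and 15 regulatory, and in 28.2% of all genes. Among genes above background on at least 5 arrays the share was 40.1%. The highest of the 10 arrays was adult replicate 4 or 5 for 30 of 33 members (90.9%, against 27.6% of all genes), and the lowest was adult replicate 1, 2 or 3 for 29 (87.9%, against 34.8%). Among genes above background on at least 5 arrays these shares were 34.7% and 48.7%. Adult replicates 4 and 5 are the adult arrays of wide spread, a split made from the values of these same arrays. The genes set beside the members, here and elsewhere, were not matched to them in level. The shares therefore describe these arrays and do not show a trait particular to proteasome genes.

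**Figure D2:**
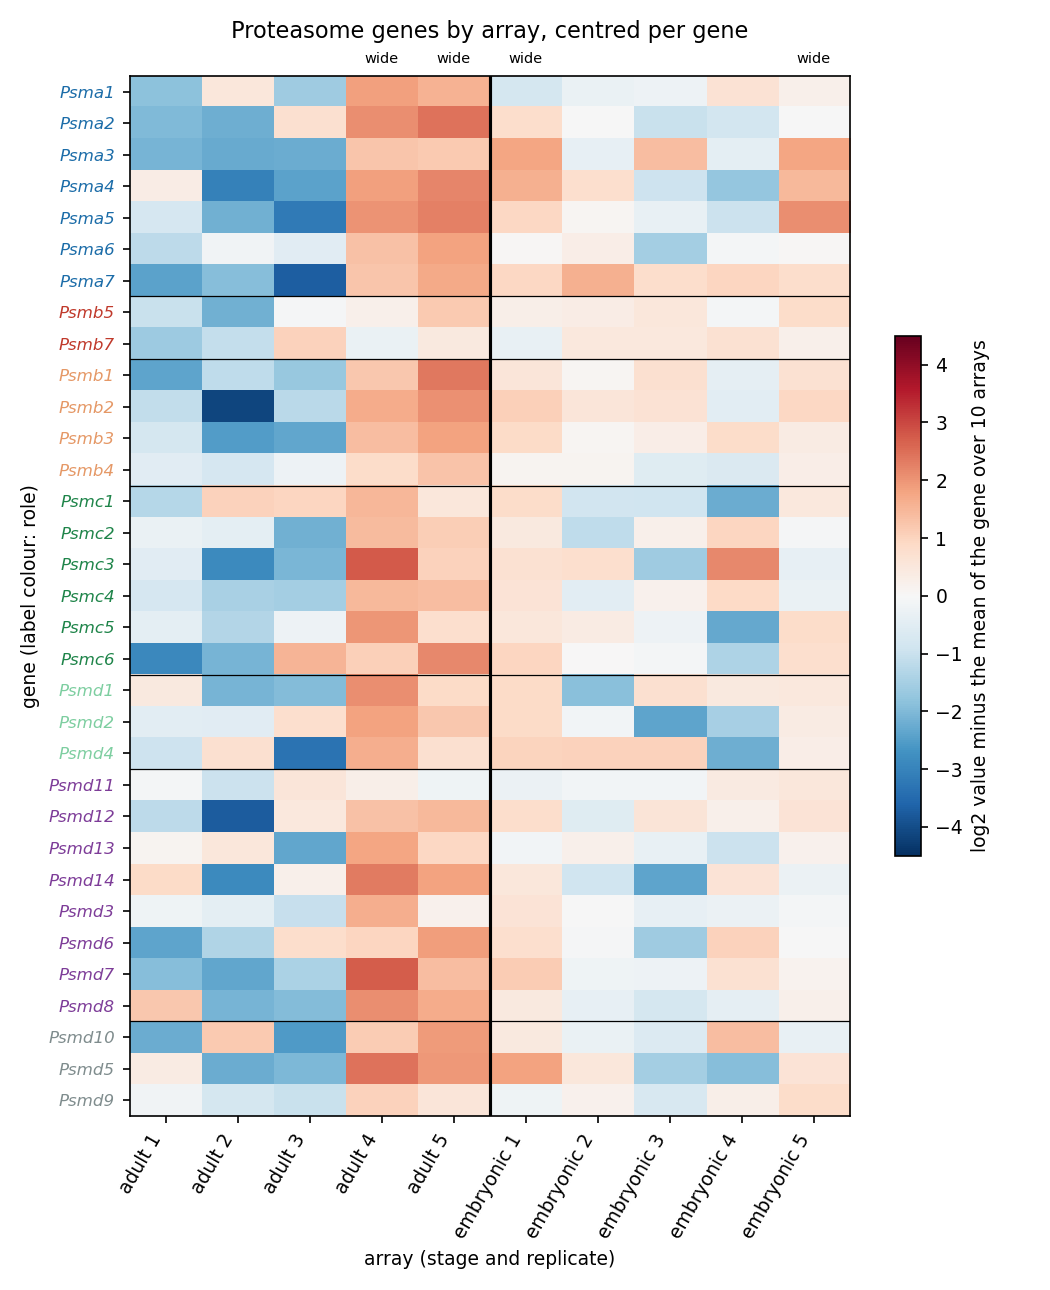
Log2 value of each of the 33 members on each array, minus the gene's mean over the 10 arrays (colour scale from -4.5 to 4.5), with adult arrays left of the line, embryonic arrays right of it, and the arrays of wide spread marked. Most members are above their mean on adult replicates 4 and 5 and below it on adult replicates 1 to 3.

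Summarised per array as the median of values centred on each gene's mean, core genes stood at -1.18, -2.16, -1.61, 1.32 and 1.79 on the adult arrays, against 0.81, 0.13, 0.29, -0.42 and 0.67 on the embryonic arrays. Regulatory genes stood at -0.44, -1.33, -1.23, 1.62 and 1.15 on the adult arrays, against 0.64, -0.11, -0.35, 0.23 and 0.26 on the embryonic arrays. Both particles were low on adult replicates 1 to 3 and high on adult replicates 4 and 5, with the embryonic arrays between them. Genes above background on at least 5 arrays moved the same way but less, with -0.27, -0.52, -0.52, 0.54 and 0.55 on the adult arrays, against 0.32, -0.09, -0.12, -0.15 and 0.27 on the embryonic arrays.

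**Figure D3:**
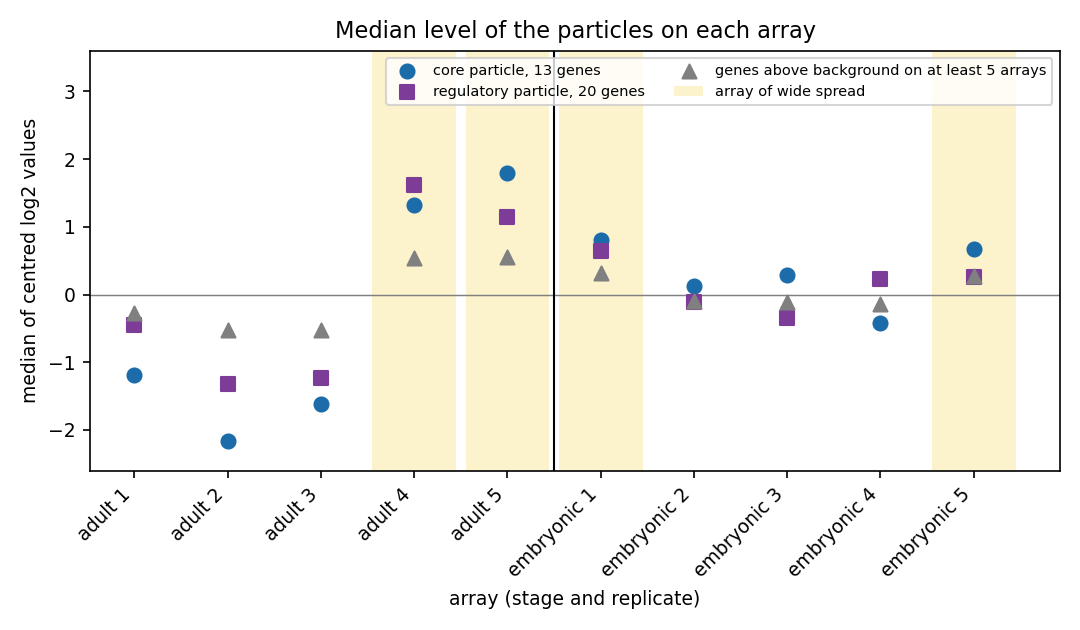
Median of the gene-centred log2 values of the 13 core genes, the 20 regulatory genes and the genes above background on at least 5 arrays, on each of 5 adult and 5 embryonic arrays, with arrays of wide spread shaded. Core genes lie between -2.16 and -1.18 on adult replicates 1 to 3 and between 1.32 and 1.79 on adult replicates 4 and 5.

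The change between the stages was taken within the arrays of narrow and of wide spread, on values without further scaling. Over the 3 adult and 3 embryonic arrays of narrow spread, 29 of 33 members had a change below 0, all 13 core genes and 16 of 20 regulatory genes. The median changes were -1.33 for core and -0.61 for regulatory genes, against -0.05 for all genes and -0.26 for genes above background on at least 5 arrays. Over the 2 adult and 2 embryonic arrays of wide spread, 31 of 33 members had a change above 0, with medians of 0.85 for core and 0.94 for regulatory genes, against 0.02 for all genes and 0.19 for genes above background on at least 5 arrays. In 27 members the change was below 0 on narrow arrays and above 0 on wide arrays.

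On narrow arrays 1 member passed the test, Psma7, which fell by 3.81 on the log2 scale in adult axons (limma, adjusted p = 0.0401); 0.717% of all genes fell and 0.464% rose at that threshold, with 0 members rising. At an unadjusted p below 0.05 there were 8 members, against 14.5% of all genes. Psma3, Psma7, Psmb1, Psmb2, Psmb3, Psmc4 and Psmd7 had all 3 adult values below all 3 embryonic values, 7 of 33 members against 11.2% of all genes. On wide arrays the lowest adjusted p among members was 0.136, 14 members had an unadjusted p below 0.05 against 19.8% of all genes, and 22 members had both adult values above both embryonic values, against 26.7% of all genes. Psma3 was the exception there, with both adult values below both embryonic values.

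The difference between the wide and narrow changes was tested as an interaction in limma's fit. No member passed at an adjusted p below 0.05, as 0.0914% of all genes did, and 10 of 33 had an unadjusted p below 0.05, against 12.9% of all genes. The difference was above 0 for 31 members and ranged from -1.23 to 4.41, with a median of 1.74. Psma7 had the highest, 4.41, with an adjusted p of 0.0780 in limma's fit.

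**Figure D4:**
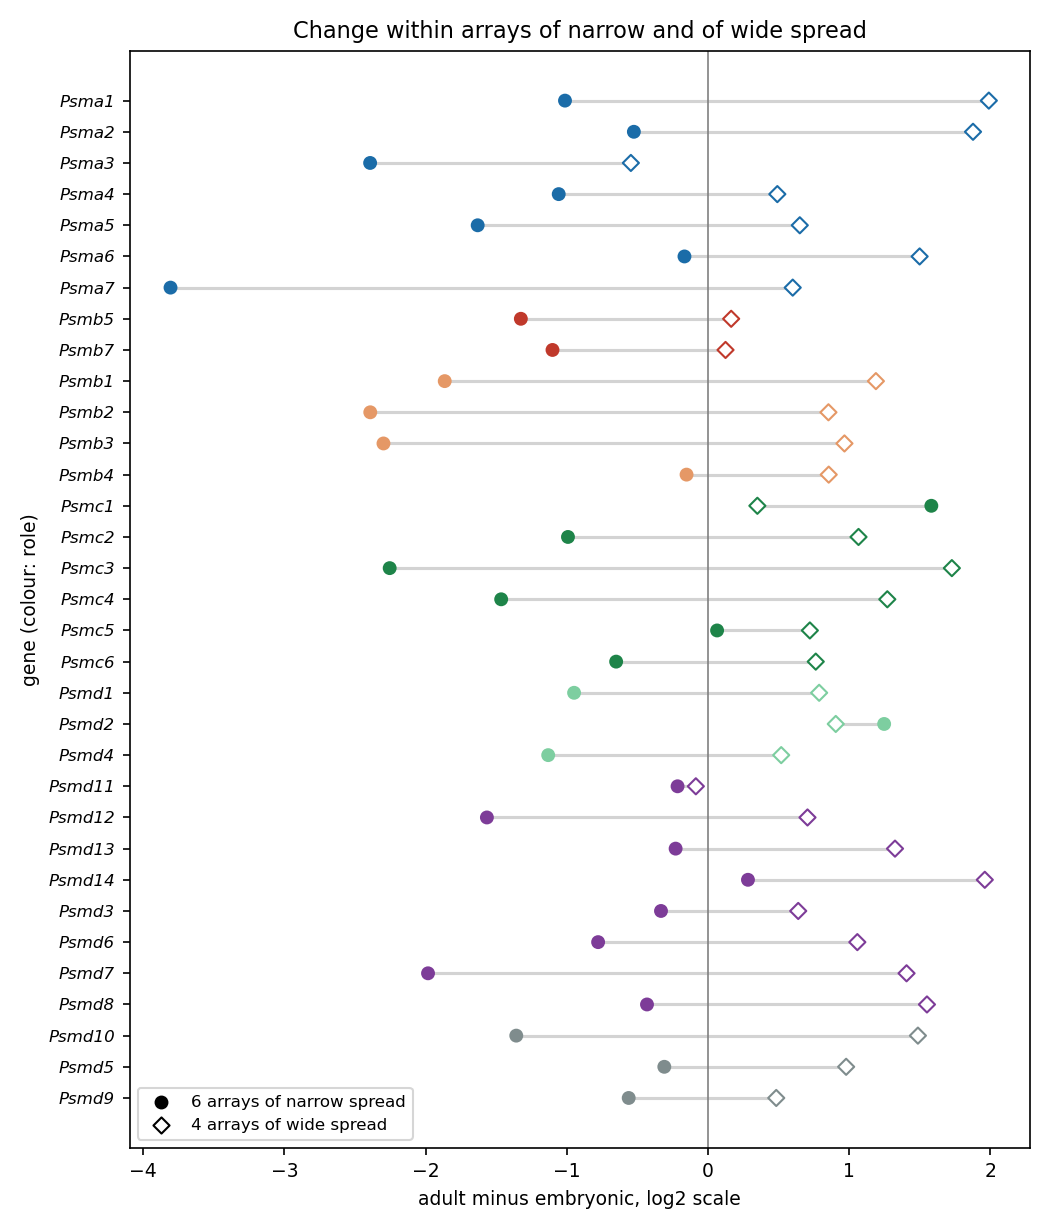
Adult minus embryonic change (log2 scale) of each of the 33 members over the 6 arrays of narrow spread (filled circles) and over the 4 arrays of wide spread (open diamonds), coloured by role. In 27 members the narrow change is below 0 and the wide change above 0.

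The hybridisation controls averaged 9.15 to 10.76 on the 4 wide arrays and 11.63 to 12.83 on the 6 narrow arrays, and so moved with this split. The summed level of the 8 fibroblast markers was 53.4 and 55.4 on the wide adult arrays, against 24.3 to 41.6 on the narrow adult arrays, with 7 of 8 markers and 1 to 5 of 8 above background. In the embryonic stage it was lower on wide arrays, 28.9 and 36.2, than on narrow arrays, 38.9 to 40.8. The 5 satellite glial markers summed to 31.8 and 32.1 on the wide adult arrays, against 24.2 to 30.04 on the narrow ones, and to 26.3 and 31.3 on the wide embryonic arrays, against 21.3 to 26.0 on the narrow ones. The summed level of the 17 macrophage and leucocyte markers was 116.2 to 142.5 on adult arrays and 55.8 to 100.4 on embryonic arrays, with 14 to 17 markers above background on adult arrays and 4 to 16 on embryonic arrays. Embryonic replicate 1 stood apart at 100.4 with 16 markers above background, the other embryonic arrays lying at 55.8 to 59.8 with 4 to 9. The sum was 116.2 and 142.5 on the wide adult arrays and 123.3 to 141.3 on the narrow ones. The 11 neuron markers summed to 63.4 and 85.5 on the wide adult arrays, against 61.1 to 71.1 on the narrow ones. In the embryonic stage they summed to 104.2 and 108.0 on wide arrays, against 76.3 to 93.8 on narrow arrays. The part of these genes and controls in the proteasome values was not tested.

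The inducible subunits separated from the constitutive ones in 1 gene. Psmb8 had 7.60, 4.24, 8.21, 6.22 and 5.92 on the adult arrays, against 2.94, 2.76, 3.05, 2.03 and 2.60 on the embryonic arrays. All adult arrays lay above all embryonic arrays, where Psmb8 was below background throughout. It rose in adult axons by 3.76 with an SE of 0.65 (limma, adjusted p = 0.0240). Against the background level, which is the bound for a gene below it, Psmb8 was at least 7.40-fold higher in adult axons. Without adult replicate 1 or 4 the adjusted p was 0.0678 and 0.0603, and without embryonic replicate 2, 3 or 5 it was 0.0592, 0.0576 and 0.0683, so each of these arrays was needed for the call. On narrow arrays the change was 4.07 (limma, adjusted p = 0.205) and on wide arrays 3.30 (limma, adjusted p = 0.0920). The macrophage and leucocyte markers given above were also higher on adult arrays, 10 of 17 past the test and 0 lower. On embryonic replicate 1, 16 of the 17 markers were above background, and Psmb8 was at 2.94, below background. The markers' summed level there, 100.4, was below that of every adult array, 116.2 to 142.5. The part of these markers in the change of Psmb8 was not tested.

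Psmb9 had 2.19, 3.56, 3.22, 6.57 and 3.93 on the adult arrays, against 2.85, 2.43, 2.95, 2.23 and 2.06 on the embryonic arrays, where it was below background throughout. Only adult replicates 4 and 5 were above background and the change was 1.39 (limma, adjusted p = 0.550), or 0.72 without adult replicate 4 (adjusted p = 0.640). No bound is given, since 3 adult arrays were below background too. Psmb10 had 4.12, 2.83, 3.51, 5.43 and 4.61 on the adult arrays, against 4.44, 4.79, 4.35, 3.37 and 4.91 on the embryonic arrays. The stages overlapped, with a change of -0.28 (limma, adjusted p = 0.948). Psme1 and Psme2 form the activator ring that interferon also induces. Psme1 had 5.51, 4.66, 7.48, 7.31 and 7.56 on the adult arrays, against 6.41, 5.59, 4.83, 7.67 and 7.57 on the embryonic arrays, and a change of 0.09 (limma, adjusted p = 0.988). Psme2 had 7.99, 8.56, 7.51, 8.49 and 8.42 on the adult arrays, against 8.06, 6.85, 8.08, 7.62 and 7.61 on the embryonic arrays, and a change of 0.55 (limma, adjusted p = 0.661). Both activator genes overlapped between the stages, and neither passed the test.

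The inducible and the constitutive gene of a pair were also set against each other within each array, where the change of their difference between stages does not depend on the probe sets' own brightness. Such a difference in bulk RNA does not show which subunit is built into proteasomes, nor that both transcripts came from the same cells. For Psmb8 minus Psmb5, Psmb8 on the embryonic arrays was taken at the background level. The mean difference was then at least 3.62 higher in adult axons on the log2 scale, a bound without sampling error. Every adult array lay above every embryonic array. No test is given for this pair, since Psmb8 was already known to separate the stages. For Psmb10 minus Psmb7 the difference was 0.33 higher in adult axons, and the stages overlapped (two-sided exact permutation test over 252 labellings, p = 0.63; adjusted over 2 pairs, 0.63).

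**Figure D5:**
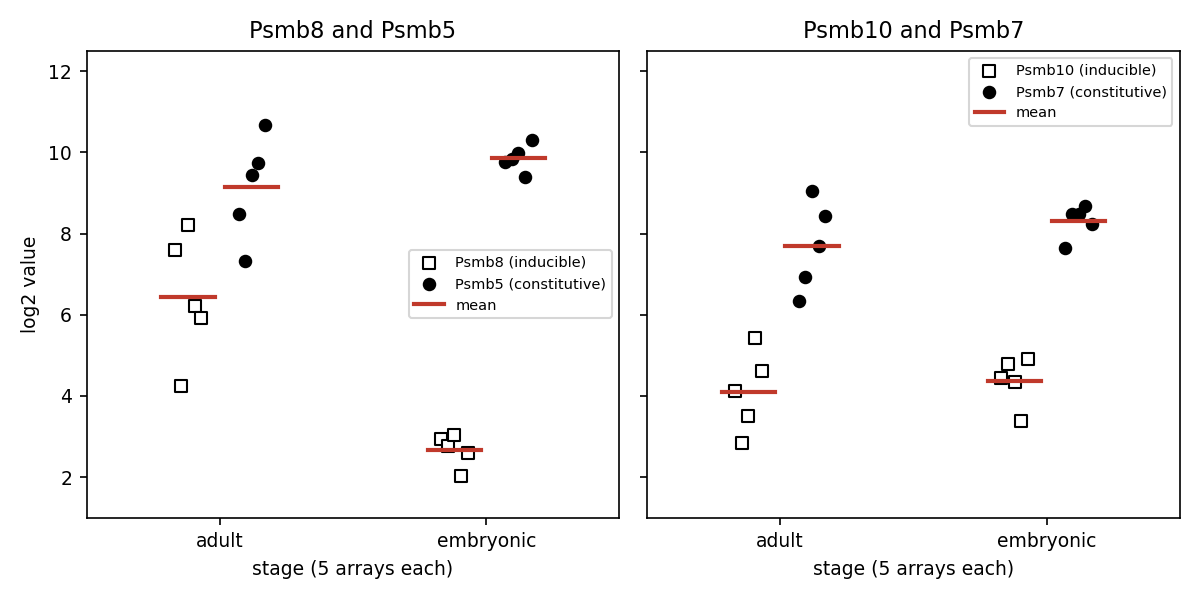
Log2 values of Psmb8 and Psmb5 (left) and of Psmb10 and Psmb7 (right) on 5 adult and 5 embryonic arrays, with red bars for means. The heights of different probe sets are not comparable; Psmb8 is above 4 on all adult arrays and below 3.1 on all embryonic arrays, while the other 3 genes overlap between stages.

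Genes that build the core or bring substrates to it gave 0 calls in limma's fit. Of the 5 core assembly chaperones, 0 passed and 1, Pomp, which is needed for the core to mature, had an unadjusted p below 0.05, with a change of -0.95 (limma, adjusted p = 0.426); Psmg4, which helps build the alpha ring, had -1.23 (limma, adjusted p = 0.537). Of the 7 proteasome-associated proteins measured, 0 passed and 0 had an unadjusted p below 0.05. The 8 measured segregase and shuttle genes had a median change of -1.05, and Nploc4, a cofactor of the segregase Vcp, alone had an unadjusted p below 0.05, at 1.92 (limma, adjusted p = 0.229), while Vcp itself had -1.42 (limma, adjusted p = 0.732). The 2 measured ubiquitin-activating enzymes, Uba1 and Uba6, had changes of -1.25 and 0.68 (limma, adjusted p = 0.565 and 0.920). The 3 regulators of proteasome transcription had a median change of 1.94. Nfe2l2, which binds antioxidant response elements, had 2.91 (limma, adjusted p = 0.309) and Nfe2l1, which raises proteasome genes when the proteasome is inhibited, 0.44 (limma, adjusted p = 0.770). The 2 measured genes of other activators and inhibitors, Psme4 and Psmf1, had -0.78 and 0.45 (limma, adjusted p = 0.882 and 0.956).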

How the data were processed

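RNA from 5 adult and 5 embryonic axon samples was measured on 1-colour Affymetrix rat arrays. The authors deposited RMA values on the log2 scale, per the submitters' processing notes; its version and options were not given in the sources used here, and the base of the logarithm was taken from the range of the values. Of its 31099 probe sets, 57 were controls. Gene names came from the platform annotation, which pairs 20826 probe sets with 1 symbol, 436 with several and 9780 with none, and all 33 members were found in RefSeq's table for GRCr8. No filter or further scaling was used. The standard deviation of all values differed between arrays, from 1.52 to 2.09, so the arrays did not share a common distribution. Changes within arrays of narrow and of wide spread came from these unscaled values and were not repeated under another scaling. Adult minus embryonic changes came from lmFit and eBayes of limma 3.58.1 (two-sided; R 4.3.3) on all 31042 other probe sets, with Benjamini-Hochberg adjustment and a threshold of 0.05. The fit was tested on simulated data.

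The members, the gene lists and the tests were chosen with earlier results of these data known. Values on all arrays are given for members called over the 10 arrays, for the highest and lowest change in each role group, for the catalytic subunits, for Psmd2, Psmd4 and Psmd14, and for the inducible subunits and their activator; of other lists, called genes and at most 2 others are named. Members that passed only within a subset of the arrays, the extremes named beside a range, and further genes of the last lists were named after their values were seen. Markers of Schwann cells (9 measured), satellite glia (5) and endothelial cells (7) were also tested, and 0 of each passed; markers of fibroblasts (8) gave 0 as well, and neuron markers (11) gave 4 lower in adult axons. Alternatives were 3 scalings, limma with array weights or with trend and robust variances, blocks for replicate number or array spread, narrow and wide arrays apart, only probe sets above background, other choices of probe set or background, and each array left out in turn. The interaction of stage and spread was added after seeing the data.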

Additional observations from a re-analysis of the deposited data

Results flagged for a closer look

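Within a stage, 4 of 76 groups of 5 values of members and inducible genes held 1 array standing apart from the other 4; chance gives about 1 in 20. All 4 were embryonic. Psma6 was at 7.79 on embryonic replicate 3, against 9.23 to 9.61 on the other embryonic arrays. Psma7 was at 9.92 on embryonic replicate 2, against 9.11 to 9.29. Psmd1 was at 2.95 on embryonic replicate 2, against 5.29 to 5.71. Psmd4 was at 3.95 on embryonic replicate 4, against 6.46 to 7.21.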

How the results depend on the processing

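Member calls numbered 0 in the fit over 10 arrays and under every alternative run, except on narrow arrays, where there were 1. Members whose stages did not overlap numbered 7 on narrow arrays and 23 on wide arrays, against 0 over the 10 arrays. All 7 were lower in adult axons, and 11.2% of all genes were lower without overlap there. Of the 23, 22 were higher and 1 lower, and 26.7% of all genes were higher without overlap on wide arrays. Over the 10 arrays 3.54% of all genes did not overlap. Fewer arrays are more easily free of overlap, so these counts are to be read beside the shares of all genes on the same arrays. This count was not run under cyclic loess. The core median change of -0.64 and the regulatory median of -0.11 were 0.85 and 0.94 on wide arrays, and cyclic loess gave -0.29 and 0.21. Core minus regulatory was -0.09 on wide arrays and -0.72 on narrow arrays. Leaving out each array gave -1.11 to -0.27 for the core, -0.38 to 0.31 for the regulatory particle, -0.75 to -0.48 for core minus regulatory (-0.53 over 10 arrays), 16 to 20 for members above background on all arrays, and 0 for calls and for non-overlap. Members above background on all 10 arrays numbered 16, but 9 with the background set at its median plus 3 MAD and 26 when 4 of 5 arrays per stage sufficed. The labels do not say whether equal replicate numbers mark pairs of samples. The deviations of same-numbered arrays correlated at -0.12, 0.05, 0.17, -0.11 and 0.28, which cannot settle whether such arrays were handled together. With the replicate block 0 members were called, and Psmb8 had an adjusted p of 0.0447 in limma's fit. Of 322 values of the 14 named members under alternatives, 1 passed the threshold, Psma7 on narrow arrays, and 22 had another sign than over the 10 arrays. Where causes of these shifts are concerned, the cause was not tested.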
